A study of Mus musculus with 8 samples.

Results

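The genes described here are 42 germline and meiosis genes of the mouse, of 21887 protein-coding genes in the gene table, whose known roles lie in germ cells. The assay, ATAC-seq, cuts nucleosome-free DNA with the transposase Tn5 and sequences the cut ends, so that reads pile up over accessible chromatin. A peak of the table, a region of 201 bp, was given to a gene when its centre lay inside the gene, or within 20 kb of it where an end of that gene was the nearest protein-coding gene end. This gave 182 of 134407 peaks, of which 115 lay inside a gene of the set and 67 outside. All samples were E14 mouse embryonic stem cells of wild-type genotype (WT), grown on gelatin in medium with serum and LIF (leukemia inhibitory factor), the cytokine that keeps these cells undifferentiated. The control group (n = 4) had no inhibitor, and the paused group (n = 4) was treated for 24 hours with 200 nM INK128, an inhibitor of the kinase mTOR that puts the cells in a state resembling embryonic diapause. All 8 samples share the single line E14 and the serum medium, so the groups stand for 1 line under 1 culture condition. The labels do not say whether replicates came from separate cultures, and p-values then measure only the spread between these samples, which may be technical.

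Germ cells make meiotic and piRNA proteins that somatic and pluripotent cells lack. The meiotic genes build the chromosome axis and the synaptonemal complex, cut DNA and repair the breaks by recombination, while the piRNA pathway uses small RNAs bound by PIWI proteins, in granules rich in Tudor-domain proteins, to silence transposons. In embryonic stem cells many of these genes have promoters rich in CpG that are held silent by DNA methylation and by a Polycomb complex of the PRC1.6 type, which is brought to DNA by the pair MGA and MAX at E-box letters (CACGTG) and by E2F6. In bulk samples a change in a small share of cells and a like change in every cell cannot be told apart.

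The DNA just before 6 start sites is printed here because those genes carry the main pattern and its exceptions. Mov10l1, Slc25a31 and Hormad1 had the largest changes at the start site, Ddx4 holds an E-box and an E2F6-type site, Sycp2 holds neither in this stretch, and Tdrd9 holds a pair of E-boxes while its start-site peak was not called. The sequences are from RefSeq (build GRCm38.p6), 250 bases ending just before the annotated start, 5′ to 3′ on the strand of the gene, in lower case with matches to CACGTG and GCGGGAA, on either strand, in capitals.

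Mov10l1 (chr15:88982744-88982993, plus strand): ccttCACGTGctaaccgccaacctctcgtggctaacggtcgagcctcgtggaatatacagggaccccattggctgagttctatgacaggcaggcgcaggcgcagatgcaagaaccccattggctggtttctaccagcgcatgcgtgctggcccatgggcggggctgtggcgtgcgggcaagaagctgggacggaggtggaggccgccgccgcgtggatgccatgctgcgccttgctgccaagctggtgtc
Slc25a31 (chr3:40708621-40708870, plus strand): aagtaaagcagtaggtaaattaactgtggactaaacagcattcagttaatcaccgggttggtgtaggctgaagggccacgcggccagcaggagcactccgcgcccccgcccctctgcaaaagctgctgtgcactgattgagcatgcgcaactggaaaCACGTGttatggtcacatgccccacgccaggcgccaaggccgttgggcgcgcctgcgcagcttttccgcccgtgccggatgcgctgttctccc
Hormad1 (chr3:95559427-95559676, plus strand): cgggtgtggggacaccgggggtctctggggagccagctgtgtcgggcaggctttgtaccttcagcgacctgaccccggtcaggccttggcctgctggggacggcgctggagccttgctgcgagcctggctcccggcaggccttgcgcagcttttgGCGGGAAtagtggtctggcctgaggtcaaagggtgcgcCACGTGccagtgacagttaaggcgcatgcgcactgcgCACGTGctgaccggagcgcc
Ddx4 (chr13:112652311-112652560, minus strand): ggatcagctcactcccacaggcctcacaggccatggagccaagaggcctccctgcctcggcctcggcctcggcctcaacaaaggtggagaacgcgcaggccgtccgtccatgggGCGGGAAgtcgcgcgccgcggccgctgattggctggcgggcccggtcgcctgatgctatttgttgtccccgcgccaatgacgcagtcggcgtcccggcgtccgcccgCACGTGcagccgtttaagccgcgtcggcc
Sycp2 (chr2:178407659-178407908, minus strand): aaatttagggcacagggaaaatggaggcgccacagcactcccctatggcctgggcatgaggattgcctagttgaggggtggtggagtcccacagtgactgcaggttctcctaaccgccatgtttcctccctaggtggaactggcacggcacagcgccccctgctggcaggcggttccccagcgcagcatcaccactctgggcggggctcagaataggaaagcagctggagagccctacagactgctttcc
Tdrd9 (chr12:111971309-111971558, plus strand): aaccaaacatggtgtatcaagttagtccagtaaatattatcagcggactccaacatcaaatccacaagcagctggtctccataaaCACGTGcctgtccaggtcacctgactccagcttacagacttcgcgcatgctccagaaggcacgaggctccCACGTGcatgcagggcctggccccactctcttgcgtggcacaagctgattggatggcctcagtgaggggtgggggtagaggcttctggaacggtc

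The E-box nearest to the start begins 246 bases before it in Mov10l1, 93 in Slc25a31, 29 in Ddx4 and 20 in Hormad1, which holds a pair. CACGTG was searched on both strands in windows of 300 bases, 250 before and 50 after the start. It was found in 15 of the 38 member windows (39.5%), against 7.84% of all 21263 windows. GCGGGAA was found in 11 of 38 (28.9%), against 5.95% of all windows, and TGACGTCA, the cAMP response element, in 0 of 38, against 2.23%. All windows include genes without a peak within 1 kb of the start, while 34 of the 38 member genes had one. Among all such peaks, 1195 belonged to a window with CACGTG and 9964 did not. For GCGGGAA these counts were 968 and 10191. The letters of CACGTG can share an end base with GCGGGAA and end bases with TGACGTCA, but no matches overlap in the printed sequences, and a match is only a description. The median number of CpG in the window was 18 for the members, with a range of 8 to 48, 19 for genes with a start-site peak and 13 for all windows.

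The table held 4434037 (control 3) to 21161767 (control 1) reads in peaks per sample, with a median of 91 reads per peak in control 1 and 18 to 29 in the other samples, so control 1 is the most precise library and control 3 the least. Values below are the deposited scaled reads per peak, and 3 reads equal a value of 1.04 in control 1 and 5.08 in control 3. Whether PCR copies of a fragment were removed is not given in the sources used here, and such floors cover counting error only. Of the marker genes, all 8 of embryonic stem cells had peaks, and 6 of 8 were higher in paused cells. Of all tested genes, 28.0% were higher and 1.28% lower on summed signal. The signal of the 8 summed to 7171 to 7539 in control and 8165 to 9400 in paused samples. The sum over all peaks was itself higher in paused samples, 8.06e+06 to 8.64e+06 against 7.32e+06 to 7.65e+06 in control. Markers of fibroblast feeders (5), primitive endoderm (4) and trophoblast (4) had peaks too. Of these 13 genes only Thy1 changed (log2 change of summed signal 0.25). Of the 3 markers of the 2-cell-like state, Zfp352 and Usp17lc were tested and both were higher. None of the 3 had a peak inside the gene or within 1 kb of an end. The nearest peaks lay 13203 (Zscan4c), 15214 (Zfp352) and 13109 bp (Usp17lc) from the start. Usp17lc had 1 weak peak, with a mean of 8.2 in control and 24.2 in paused samples. The summed signal of the 3 was 76.4 to 94.8 in control and 127 to 166 in paused samples. The part of these cell states in the results below was not tested.

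Most of these genes had a peak near the start site with signal in both groups, and the start sites that changed were all more accessible in paused cells. The peaks come from 1 set for all samples, so a peak does not show a call in each group. Every gene had at least 1 peak, with a median of 3, and 10 genes had just 1. Of the 42 genes, 39 had a peak of their own, by the rule above, within 1 kb of a gene end. Smc1b, Tex14 and Zcwpw1 had none, and the peaks 85, 557 and 548 bp from their starts went to neighbouring genes. RefSeq start sites were listed for 38 of the genes, and not for Spo11, Tex15, Rnf17 and Piwil2. Of the 38, 34 (89.5%) had a peak of their own within 1 kb of the start, called a start-site peak below. By the same rule, so did 62.4% of all 17492 genes with a listed start. The exceptions were Smc1b, Tex14, Zcwpw1 and Mei1. The member start-site peaks were of moderate strength, with a median value of 103 against 175 for all start-site peaks, and 6 of 34 lay above that median. A mean value under 50 was found at 8 of the 34, and the lowest was 15.6.

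Of the 34 start-site peaks, 15 (44.1%) were called higher in paused cells and 0 lower, by limma-trend with an adjusted p under 0.05 over all 127402 tested peaks. The background was 11.0% higher and 0.666% lower among all 11267 tested start-site peaks. Log2 changes are on the scale of log2(value + 1), which understates the change of weak peaks. The 15 ratios of paused to control means ran from 1.30 to 1.90. The median log2 change was 0.35 for the members and 0.18 for all start-site peaks, beside 0.10 for all peaks, and 33 of 34 changes were above 0. All 4 paused samples lay above all 4 control samples at 20 of the 34 peaks, against a background of 15.6% of all start-site peaks. Of the called peaks, 14 of 15 had separate groups, and the exception was Ddx4. The lowest called change was 0.38 (Tdrkh) and the highest change not called was 0.36 (Dmc1, adjusted p = 0.0539).

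Summed over the 34 start-site peaks, the signal was 3418, 3648, 3388 and 3600 in control samples 1 to 4 and 4544, 4558, 4669 and 4590 in paused samples 1 to 4. The groups were apart, with every paused sum above every control sum. Total signal at start sites was itself higher in paused samples. As a share of all start-site signal, the members gave 1.87, 1.79, 1.70 and 1.82 per 1000 in control samples and 2.11, 2.15, 1.95 and 2.02 per 1000 in paused samples, and the groups stayed apart.

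**Figure D1:**
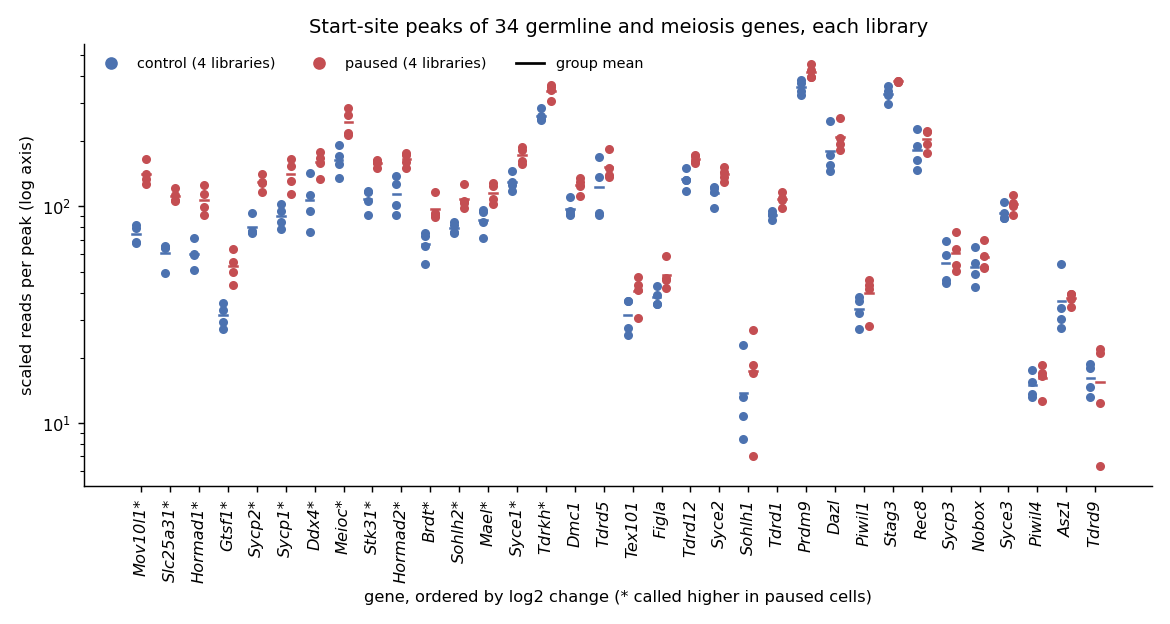
Scaled reads per peak (vertical log axis) at the start-site peaks of 34 germline and meiosis genes, ordered by log2 change; each point is 1 of 4 control (blue) or 4 paused (red) libraries and the bars are group means. The 15 genes with an asterisk were called higher, and of these the groups overlap only at Ddx4.

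The scaling of the samples changes these counts. The deposited values leave the median of all peaks 0.10 above 0 on the log2 scale, and scaling by TMM (trimmed mean of M-values) takes that shift away. With TMM in edgeR, 11 of 34 start-site peaks were higher, against 3.48% of all start-site peaks, and with limma-trend after TMM rescaling 10, against 2.74%. A loess correction on peak strength left 7, against 1.14%, and DESeq2 gave 7, against 0.959%. In these 4 fits 0 member start-site peaks were lower, against 1.28%, 0.985%, 1.42% and 0.408% of all start-site peaks, and 29 to 32 of the 34 changes were above 0. The start-site counts under other settings were chosen after the data had been seen. The medians of the 34 changes were 0.19 to 0.25 in these 4 fits, and -0.01 to 0.08 for all start-site peaks. Hormad1, Meioc, Mov10l1, Slc25a31, Sycp1 and Sycp2 kept their call in every alternative tried. Without 1 library, Mael lost its call in 5 of 8 cases (highest adjusted p = 0.135, without control 3), Sohlh2 in 4 (0.0876, without paused 3), Syce1 in 2 (0.0805, without paused 4) and Brdt in 2 (0.0547, without paused 1).

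**Figure D2:**
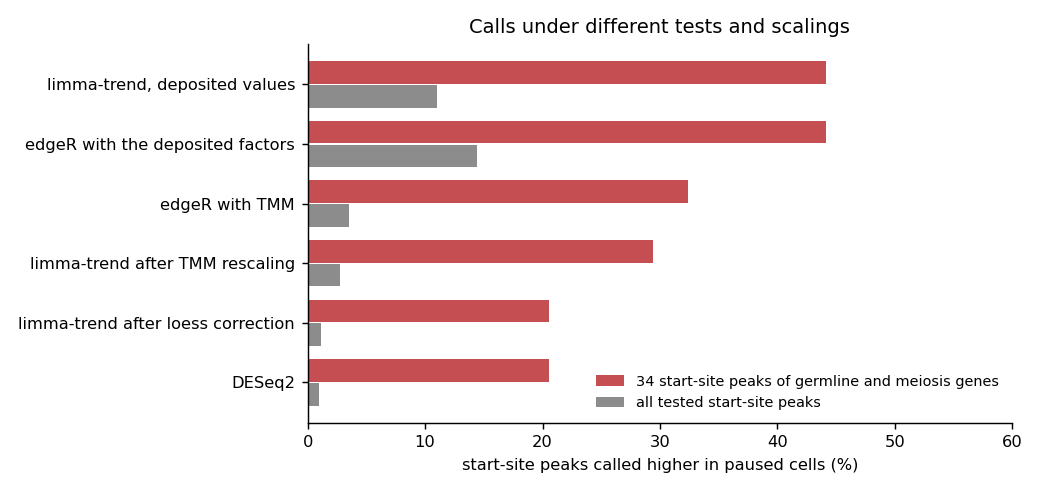
Share of start-site peaks called higher in paused cells (horizontal axis, %) for the 34 peaks of germline and meiosis genes (red) and for all tested start-site peaks (grey), under 6 tests or scalings. The member share is 44.1% with the deposited values and 20.6% after loess correction or with DESeq2, where that of all start-site peaks is 11.0%, 1.14% and 0.959%.

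Genes of the piRNA pathway and germ granules gained at 6 of 14 start-site peaks, with a median log2 change of 0.33 over the 14. Of all start-site peaks, 11.0% were called higher, with a median of 0.18. In each sentence of values below, the numbers are scaled reads in replicates 1, 2, 3 and 4, and ± is the SD with n = 4. The largest change was at Mov10l1, an RNA helicase needed to process piRNA precursors (chr15:88982747-88982947). It held 68.8, 82.4, 79.6 and 67.6 in the control samples and 127, 166, 133 and 141 in the paused samples. All paused samples lay above all control samples, and the mean went from 74.6 ± 7.50 to 142 ± 16.9, a ratio of 1.90 (log2 change 0.91, SE 0.13, adjusted p = 1.15e-05). An end of Mlc1 also lies within 1 kb of this peak. Ddx4, the germ-granule helicase also known as Vasa (chr13:112652249-112652449), held 76.0, 143, 94.8 and 113 in the control samples and 134, 178, 168 and 159 in the paused samples. Here control 2 lay above paused 1, so the groups overlapped, and the mean went from 107 ± 28.7 to 159.7 ± 18.9 (log2 change 0.61, SE 0.14, adjusted p = 0.00376). Gtsf1 encodes a cofactor of PIWI proteins. Its peak (chr15:103430305-103430505) was weak, with 33.2, 35.8, 27.1 and 29.4 in the control samples and 63.5, 55.2, 49.6 and 43.4 in the paused samples. The groups did not overlap and the mean rose from 31.4 ± 3.89 to 52.9 ± 8.53 (log2 change 0.73, SE 0.18, adjusted p = 0.00622).

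Stk31, a germ-cell protein with a Tudor domain and a kinase-like domain, had an even response (chr6:49395423-49395623). Its values were 106, 118, 91.4 and 116 in the control samples and 158, 164, 163 and 150.0 in the paused samples. The paused samples lay close together and above every control sample, and the mean rose from 108 ± 12.2 to 159 ± 6.41 (log2 change 0.56, SE 0.12, adjusted p = 0.00192). Mael, the mouse Maelstrom protein of the piRNA pathway (chr1:166238615-166238815), had 84.7, 96.7, 71.1 and 94.0 in the control samples and 103, 128, 124 and 108 in the paused samples. The groups were apart by a small margin, since control 2 was just under paused 1, and the mean rose from 86.7 ± 11.6 to 116 ± 12.2 (log2 change 0.42, SE 0.14, adjusted p = 0.0353). Tdrkh is a mitochondrial Tudor protein of piRNA maturation, and its start site was the strongest of those called (chr3:94413053-94413253). It held 254, 249.6, 262 and 285 in the control samples and 308, 345, 363 and 355 in the paused samples. The groups were apart and the ratio of means, 1.30, was the lowest of the called peaks (log2 change 0.38, SE 0.10, adjusted p = 0.0111).

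The other 8 start-site peaks with piRNA or granule roles were not called. At Tdrd12 and Tdrd1, Tudor proteins of the same pathway, the groups did not overlap although the test was missed. Tdrd12 held 151, 118, 132 and 132 in the control samples and 173, 170.3, 161 and 158 in the paused samples, a change of 0.32 (SE 0.12, adjusted p = 0.0687). Tdrd1 held 92.0, 95.5, 86.4 and 91.1 in the control samples and 109.6, 107, 116 and 98.4 in the paused samples, a change of 0.24 (SE 0.13, adjusted p = 0.222). Both genes were higher on their summed signal, described below. Tdrd5, another Tudor protein of the granule, had 93.7, 168, 91.4 and 137 in the control samples and 183, 137, 139.6 and 151 in the paused samples, with control 2 above every paused sample but 1 (log2 change 0.35, SE 0.15, adjusted p = 0.103). It was called when control 2 was left out (adjusted p = 0.0128). Dazl, an RNA-binding regulator of translation in germ cells, had 155, 248, 146 and 172 in the control samples and 255, 181, 206 and 193 in the paused samples (log2 change 0.23, SE 0.13, adjusted p = 0.252). Here too control 2 was the high one, and without it the peak was called (adjusted p = 0.0324). At Tdrd5 and Dazl, leaving out the highest control sample raises the change in itself. Without control 2, 14.0% of all start-site peaks were called higher, against 11.0% with all samples. The remaining 4 were weak. Piwil1, a PIWI protein of later spermatogenesis, had 32.1, 38.2, 27.1 and 36.7 in the control samples and 41.5, 45.7, 27.9 and 43.4 in the paused samples. Piwil4, the PIWI protein that guides DNA methylation in fetal germ cells, had 13.1, 15.5, 13.6 and 17.6 in the control samples and 18.5, 12.6, 17.1 and 16.4 in the paused samples. Both pairs of groups overlapped, with changes of 0.22 (SE 0.20, adjusted p = 0.491) and 0.10 (SE 0.29, adjusted p = 0.855). Asz1, a mitochondrial protein of the piRNA pathway, had 30.1, 27.5, 33.9 and 54.4 in the control samples and 39.2, 39.4, 34.1 and 37.5 in the paused samples, a change of 0.09 (SE 0.20, adjusted p = 0.807). Tdrd9, a Tudor helicase, had the only start-site change below 0, with 18.0, 13.1, 18.6 and 14.7 in the control samples and 21.9, 6.31, 12.4 and 21.1 in the paused samples (log2 change -0.18, SE 0.33, adjusted p = 0.752).

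For 3 genes of this class, the RefSeq start was not listed, and peaks within 1 kb of either gene end are given instead. Rnf17, a granule protein with a RING finger and Tudor domains, had 139, 133, 94.8 and 99.9 in the control samples and 175, 128, 141 and 164 in the paused samples (chr14:56402560-56402760). Paused 2 lay below control 1 and control 2, so the groups overlapped, and the mean rose from 116 ± 22.3 to 152 ± 21.6 (log2 change 0.39, SE 0.14, adjusted p = 0.0475). That call was lost without control 3, control 4, paused 1 or paused 4, with a highest adjusted p of 0.174. Piwil2, the PIWI protein of germline stem cells and spermatocytes, had a very weak gene-end peak of 9.33, 20.3, 11.8 and 20.6 in the control samples and 8.07, 17.4, 3.10 and 10.5 in the paused samples, with no call (log2 change -0.74, SE 0.39, adjusted p = 0.205). Tex15, a partner of the PIWI pathway in transposon silencing, had 3 gene-end peaks, none called. The strongest held 73.6, 105, 84.7 and 85.2 in the control samples and 100.4, 88.3, 99.3 and 117 in the paused samples (log2 change 0.22, SE 0.14, adjusted p = 0.306).

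Genes of the chromosome axis, cohesin and the synaptonemal complex gained at 5 of 10 start-site peaks, with a median log2 change of 0.35. The background over all start-site peaks was 11.0% called higher, with a median of 0.18. Hormad1 and Hormad2 are HORMA-domain proteins of the meiotic axis. At Hormad1 (chr3:95559508-95559708) the values were 59.5, 71.7, 50.8 and 60.2 in the control samples and 99.2, 114, 91.5 and 125 in the paused samples. The groups were well apart, and the mean rose from 60.5 ± 8.56 to 107 ± 15.0, a ratio of 1.77 (log2 change 0.82, SE 0.15, adjusted p = 0.000189). Hormad2 (chr11:4441111-4441311) had 128, 102, 91.4 and 138 in the control samples and 151, 174, 177 and 161 in the paused samples. The lowest paused sample lay above the highest control sample, and the mean rose from 115 ± 21.8 to 166 ± 11.9 (log2 change 0.54, SE 0.13, adjusted p = 0.00409). Sycp2, which builds the lateral element of the synaptonemal complex together with Sycp3, had 76.7, 75.2, 93.1 and 76.4 in the control samples and 117, 142, 130.3 and 129 in the paused samples (chr2:178407526-178407726). Control 3 was the high control sample, still below every paused sample, and the mean rose from 80.4 ± 8.52 to 129 ± 10.4 (log2 change 0.68, SE 0.13, adjusted p = 0.000439). Sycp1, the transverse filament that zips the lateral elements together, had 78.5, 103, 84.7 and 95.5 in the control samples and 166, 114, 154 and 131 in the paused samples (chr3:102935605-102935805). Control 2 and paused 2 were the closest samples of the groups, which stayed apart, and the mean rose from 90.3 ± 10.8 to 141 ± 23.4 (log2 change 0.63, SE 0.14, adjusted p = 0.0015). Syce1, a protein of the central element, had 125, 146, 130.4 and 118 in the control samples and 157, 162, 182 and 189 in the paused samples (chr7:140787701-140787901). No overlap was seen between the groups, and the mean rose from 129.8 ± 11.9 to 172 ± 15.1 (log2 change 0.41, SE 0.12, adjusted p = 0.0191).

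The other 5 start sites of this class were not called. Syce2, also of the central element, had 123, 122, 98.2 and 116 in the control samples and 130.3, 144, 152 and 137 in the paused samples. Its groups did not overlap, with a change of 0.30 (SE 0.12, adjusted p = 0.106). Stag3, the meiotic cohesin subunit, had a strong start-site peak of 297, 340.4, 361 and 328 in the control samples and 377, 382, 375 and 378 in the paused samples. These groups were apart as well, and the change was small, 0.19 (SE 0.10, adjusted p = 0.2). An end of Gpc2 lies within 1 kb of it. A second Stag3 peak lay at the 5′ end of the gene span. It had 97.5, 95.5, 102 and 109 in the control samples and 91.1, 83.6, 85.3 and 83.2 in the paused samples. All paused samples lay below all control samples, but without a call (log2 change -0.23, SE 0.13, adjusted p = 0.248). Rec8, the meiotic kleisin of cohesin, had 190.5, 148, 227 and 165 in the control samples and 176, 224, 222 and 193 in the paused samples, with overlapping groups (log2 change 0.17, SE 0.12, adjusted p = 0.38). Sycp3, the partner of Sycp2 in the lateral element, had 59.5, 44.2, 69.4 and 45.5 in the control samples and 76.1, 50.5, 63.6 and 53.9 in the paused samples (log2 change 0.16, SE 0.17, adjusted p = 0.565). Its groups overlapped. Syce3 had 93.7, 105, 88.0 and 88.2 in the control samples and 113, 91.5, 101 and 104 in the paused samples (log2 change 0.13, SE 0.13, adjusted p = 0.565), so the 3 central-element genes ran from a called change to one near that of all start-site peaks.

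Recombination and meiotic entry genes had start-site peaks at 3 of 6 genes, and 1 of the 3 was called, against 11.0% of all start-site peaks. Meioc, which with its partner YTHDC2 keeps cells in meiotic prophase, had 170.4, 156, 135 and 192 in the control samples and 215, 219, 264 and 285 in the paused samples (chr11:102665303-102665503). No control sample reached a paused one, and the mean rose from 164 ± 24.0 to 246 ± 34.2 (log2 change 0.58, SE 0.12, adjusted p = 0.00107). Prdm9, the histone methyltransferase that marks recombination hotspots, had the strongest start-site peak of the set, with 327, 343, 383 and 373 in the control samples and 396, 397, 428 and 455 in the paused samples. The groups were apart without a call (log2 change 0.23, SE 0.10, adjusted p = 0.115). Dmc1, the meiotic strand-exchange protein, had 111, 95.5, 91.4 and 92.6 in the control samples and 130.3, 125, 112 and 135 in the paused samples. These groups were also apart, and Dmc1 was the nearest to a call (log2 change 0.36, SE 0.13, adjusted p = 0.0539). Without paused 3, the lowest paused sample, it was called (adjusted p = 0.0385), but leaving out that sample raises the change in itself. Mei1, needed to form the meiotic DNA breaks, had no peak at its listed start, which lies inside the gene span. It had one 241 bp from the 5′ end of the span and 12161 bp from the listed start (chr15:82070215-82070415). This peak held 56.4, 53.8, 52.5 and 29.4 in the control samples and 83.1, 72.5, 79.1 and 65.6 in the paused samples. Control 4 was the low control sample, the groups were apart, and the mean rose from 48.0 ± 12.5 to 75.1 ± 7.66 (log2 change 0.67, SE 0.17, adjusted p = 0.00773). Without control 4 the adjusted p was 0.0584. Spo11, the enzyme that makes those breaks, had a gene-end peak without a call, 136, 124, 159 and 126 in the control samples and 107, 106, 144 and 122 in the paused samples (log2 change -0.19, SE 0.13, adjusted p = 0.34). A peak inside Spo11, over 1 kb from its ends (chr2:172979960-172980160), had 57.0, 37.0, 45.7 and 54.4 in the control samples and 92.3, 117, 90.0 and 96.1 in the paused samples. Every paused sample lay far above every control sample, and the mean rose from 48.5 ± 9.07 to 98.8 ± 12.2, a ratio of 2.03 (log2 change 1.02, SE 0.16, adjusted p = 2.24e-05).

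The other germ-cell proteins gained at 2 of 3 start-site peaks, against 11.0% of all start-site peaks. Slc25a31, the germ-cell ADP/ATP carrier of mitochondria, had its only peak at the start site (chr3:40708726-40708926). It held 65.7, 64.5, 49.1 and 64.7 in the control samples and 107, 121, 106 and 112 in the paused samples. The groups were far apart, and the mean rose from 61.0 ± 7.93 to 112 ± 7.15, a ratio of 1.83 (log2 change 0.87, SE 0.14, adjusted p = 5.3e-05). Brdt, the testis member of the BET family of acetyl-histone readers, had 75.7, 65.7, 72.8 and 54.4 in the control samples and 117, 93.1, 91.5 and 89.0 in the paused samples (chr5:107331015-107331215). The groups stayed apart, with paused 1 the highest, and the mean rose from 67.1 ± 9.50 to 97.5 ± 12.8 (log2 change 0.53, SE 0.15, adjusted p = 0.0112). Tex101, a surface protein of germ cells, had a weak peak of 36.6, 27.5, 25.4 and 36.7 in the control samples and 47.3, 41.0, 43.4 and 30.5 in the paused samples (log2 change 0.35, SE 0.20, adjusted p = 0.246), with overlapping groups. Among the 4 transcription factors of early germ cells, 1 start-site peak was called, against the same 11.0%. Sohlh2, a basic helix-loop-helix factor, had 75.0, 84.8, 76.2 and 82.3 in the control samples and 98.0, 104, 127 and 105 in the paused samples (chr3:55181942-55182142). Controls all lay below paused samples, and the mean rose from 79.6 ± 4.72 to 109 ± 12.8 (log2 change 0.44, SE 0.13, adjusted p = 0.0238). Its partner Sohlh1 had a weak peak, with 22.8, 10.8, 8.47 and 13.2 in the control samples and 18.5, 26.8, 17.1 and 7.03 in the paused samples (log2 change 0.26, SE 0.34, adjusted p = 0.654). Figla, an oocyte factor, had 39.1, 43.0, 35.6 and 35.3 in the control samples and 58.8, 45.7, 46.5 and 42.2 in the paused samples at its start (log2 change 0.32, SE 0.18, adjusted p = 0.226). Nobox, another oocyte factor, had 55.0, 49.0, 42.3 and 64.7 in the control samples and 58.8, 52.0, 69.8 and 52.7 in the paused samples (log2 change 0.15, SE 0.17, adjusted p = 0.588). Of these uncalled peaks, all 3 had overlapping groups.

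**Figure D3:**
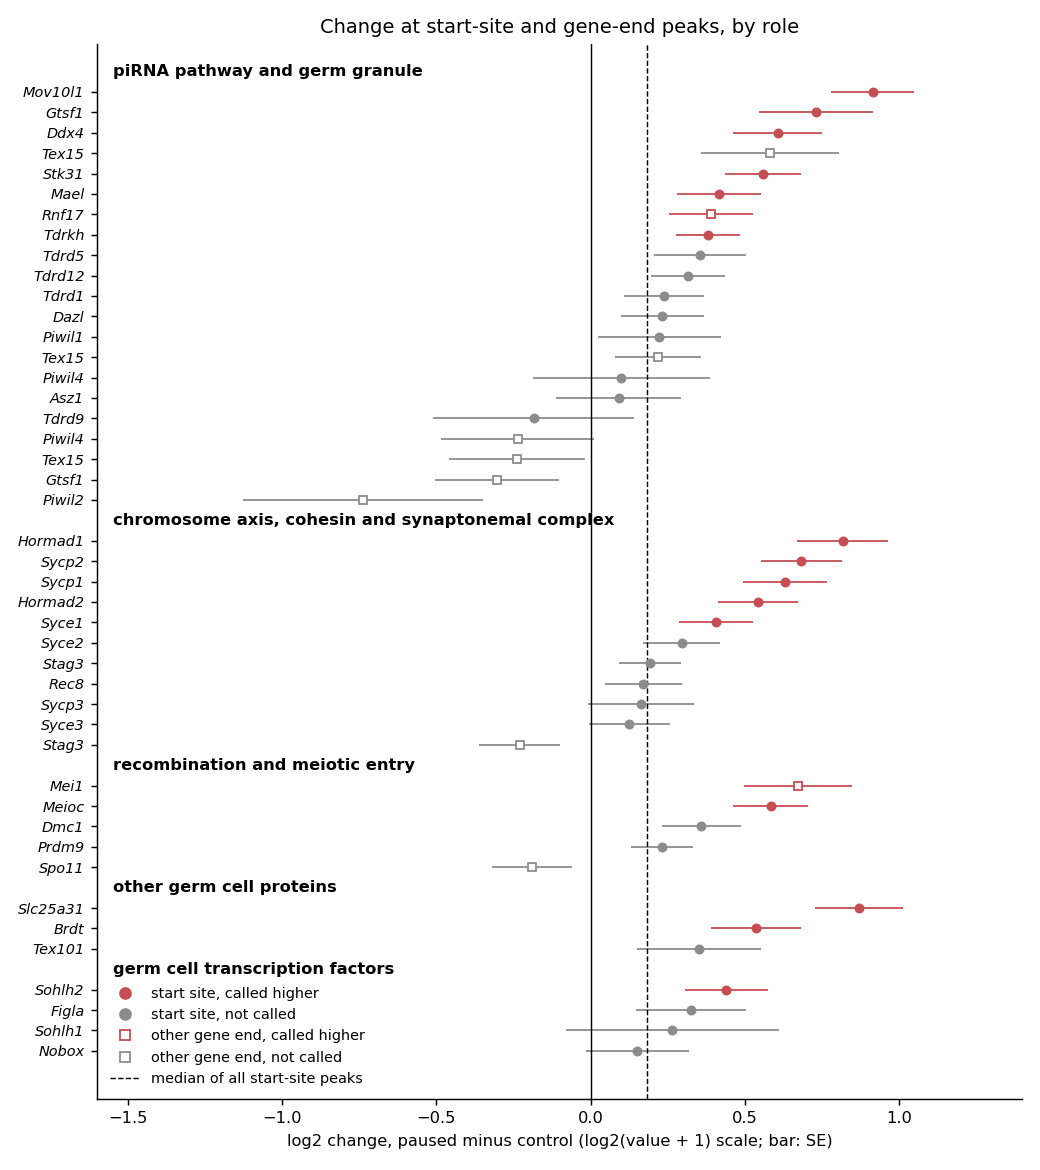
Log2 change, paused minus control, with its SE (horizontal axis) at start-site peaks (circles) and other gene-end peaks (squares) of the genes, sorted by role; red marks peaks called higher, and the dashed line is the median of all start-site peaks, 0.18. Called peaks appear in all 5 roles, and no gene-end peak was called lower.

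The 3 genes without a gene-end peak of their own each lie beside another gene, whose end is nearer to the peak at their start. The peak 85 bp from the start of Smc1b, a meiotic cohesin subunit, belongs to Ribc2 by the nearest end (chr15:85131942-85132142). Its mean rose from 94.6 ± 12.6 to 127 ± 17.8 (log2 change 0.42, SE 0.14, adjusted p = 0.0323). The peak 557 bp from the start of Tex14, a protein of the bridges between germ cells, belongs to Rad51c, and went from 178 ± 31.3 to 180.4 ± 29.7 (log2 change 0.02, SE 0.13, adjusted p = 0.943) with no call. At Zcwpw1, a reader of the histone marks that PRDM9 writes, the peak 548 bp from the start belongs to Mepce, and went from 106 ± 20.4 to 123 ± 19.3 (log2 change 0.22, SE 0.14, adjusted p = 0.31), again with no call. The signal given to Zcwpw1 itself was too low to test, with sums of 4.84, 7.17, 1.69 and 2.94 in control and 11.5, 4.73, 6.21 and 5.86 in paused samples. Most of these values lie near the 3-read floor of their sample.

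Away from gene ends, over 1 kb from both, the genes had 136 tested peaks, of which 16 (11.8%) were higher and 7 (5.15%) lower. The background for such peaks was 11.0% higher and 3.15% lower, so the share called higher was near it. The median change was 0.07, beside 0.08 for all peaks away from ends. Over all 180 tested member peaks, 33 were higher and 7 lower, against 11.0% and 2.91% of all tested peaks. With TMM in edgeR these were 19 and 15, against 7.13% and 5.54%, and after loess correction 14 and 13, against 5.10% and 3.50%. The largest called rise away from ends was at Figla, 12796 bp outside the gene (chr6:86003598-86003798), with 19.4, 5.97, 10.2 and 17.6 in the control samples and 36.9, 42.6, 31.0 and 31.6 in the paused samples. The next lay inside Tex15 (chr8:33554488-33554688), with 11.1, 10.8, 5.08 and 14.7 in the control samples and 41.5, 17.4, 21.7 and 38.7 in the paused samples. Both were weak peaks with groups apart, and their log2 changes were 1.47 (SE 0.28, adjusted p = 0.000414) and 1.43 (SE 0.31, adjusted p = 0.00187). Piwil2, whose gene-end peak was not called, had a called peak inside the gene (chr14:70429333-70429533) with 84.0, 90.8, 76.2 and 82.3 in the control samples and 156, 112, 139.6 and 116 in the paused samples. Its groups were apart, with a change of 0.63 (SE 0.13, adjusted p = 0.00125). A peak inside Stk31 (chr6:49416411-49416611) had 20.4, 22.7, 25.4 and 11.8 in the control samples and 32.3, 48.9, 37.2 and 32.8 in the paused samples, with groups apart as well and a change of 0.91 (SE 0.24, adjusted p = 0.00759). The other 11 called rises were 3 peaks inside Tdrd9, 2 inside Hormad2, 1 more each inside Stk31, Piwil2, Mov10l1, Tdrd12 and Syce3, and 1 beside Nobox, with changes of 0.33 to 1.27. Outside the genes, 2 of 50 tested peaks were higher and 1 lower. That lower peak lies 1269 bp from Stag3 (chr5:138313566-138313766) and had 16.6, 26.3, 40.6 and 29.4 in the control samples and 10.4, 6.31, 17.1 and 5.86 in the paused samples. The groups overlapped, and the mean fell from 28.2 ± 9.91 to 9.90 ± 5.19 (log2 change -1.47, SE 0.32, adjusted p = 0.00166).

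**Figure D4:**
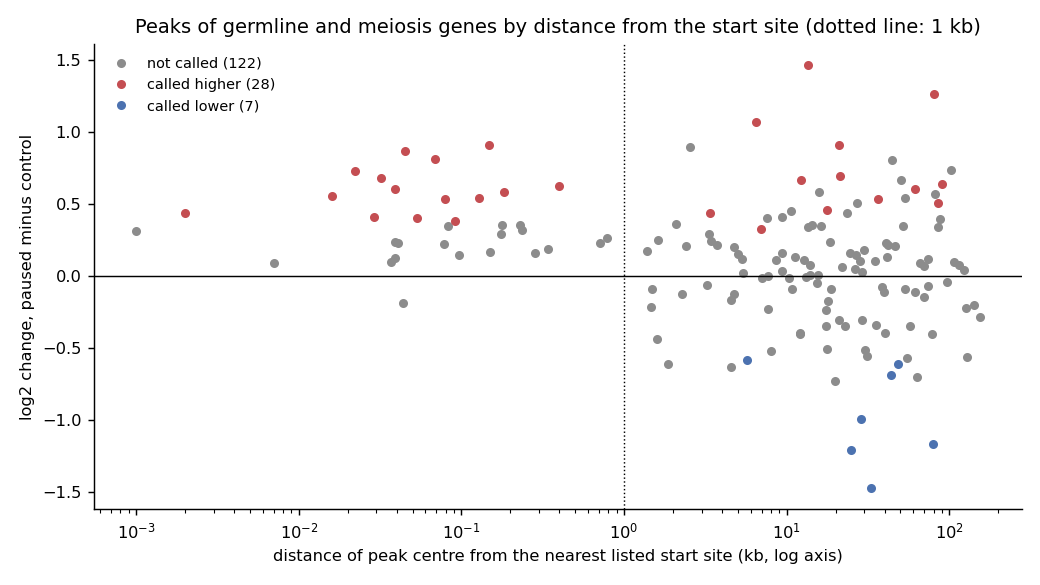
Log2 change, paused minus control (vertical axis), against the distance of the peak centre from the nearest listed start site of its gene (kb, log axis), for the 157 tested peaks of genes with a listed start. Within 1 kb, left of the dotted line, 15 peaks were called higher (red) and 0 lower; farther out lie the other 13 called higher and all 7 called lower (blue).

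Tex14 moved the other way. It had the most peaks of the set, 25, of which 24 lie inside the gene and the nearest is 8525 bp from the start. Of its 25 peaks, 4 were lower and 0 higher, and 17 of the 25 changes were below 0, with a median of -0.22. Of all tested peaks away from gene ends, 3.15% were lower and 11.0% higher. Those 4 are among the 7 member peaks called lower. The strongest of the 4 (chr11:87453544-87453744) had 117, 124, 107 and 118 in the control samples and 73.8, 67.8, 85.3 and 77.3 in the paused samples. The groups did not overlap, and the mean fell from 116 ± 7.24 to 76.1 ± 7.32 (log2 change -0.61, SE 0.13, adjusted p = 0.00172). Another (chr11:87433476-87433676) had 44.2, 57.3, 50.8 and 54.4 in the control samples and 21.9, 23.7, 31.0 and 25.8 in the paused samples, so every paused sample was far below every control sample (log2 change -0.99, SE 0.19, adjusted p = 0.000453). A further peak (chr11:87448763-87448963) had 77.8, 82.4, 76.2 and 76.4 in the control samples and 55.4, 42.6, 31.0 and 73.8 in the paused samples. Paused 3 was the low one, and without it the adjusted p was 0.0545, against 0.00853 with all samples (log2 change -0.68). The weakest had a mean of 19.7 ± 2.02 to 8.66 ± 3.11 (log2 change -1.16, SE 0.33, adjusted p = 0.0137). Summed over its 25 peaks, Tex14 had 1477, 1516, 1563 and 1721 in control and 1245, 1401, 1415 and 1512 in paused samples, and the mean fell from 1569 ± 107 to 1393 ± 111 (log2 change -0.17, SE 0.06, adjusted p = 0.0219). That call was lost without control 4 (adjusted p = 0.105) and without paused 1 (adjusted p = 0.0914). Of the other 3 lower peaks, the one beside Stag3 is given above, and those inside Gtsf1 and Rec8 changed by -1.21 (SE 0.35, adjusted p = 0.0156) and -0.58 (SE 0.19, adjusted p = 0.035).

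**Figure D5:**
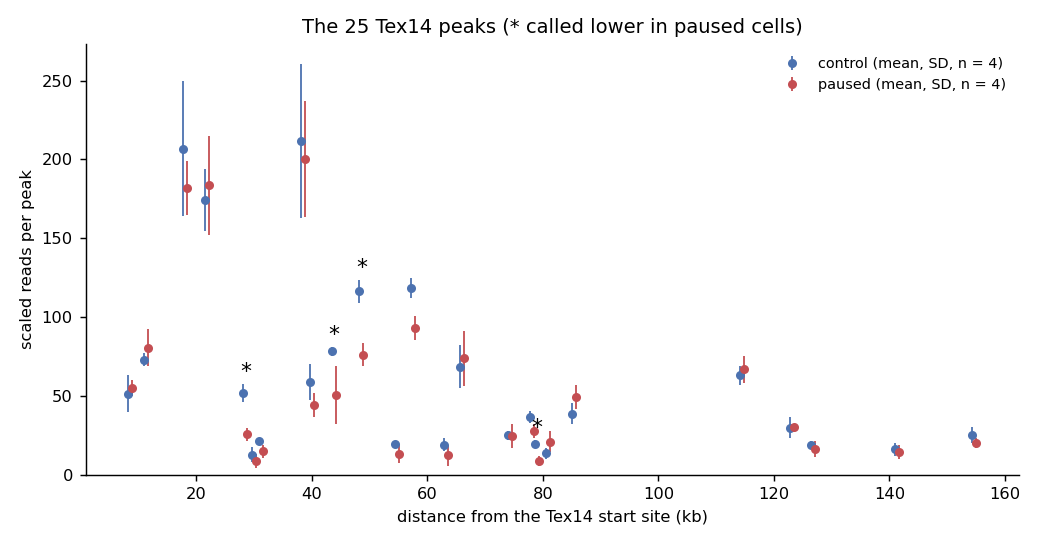
Scaled reads (vertical axis, mean and SD, n = 4 per group) at the 25 Tex14 peaks by distance from the start site (kb), control in blue and paused in red. The 4 peaks called lower (asterisks) lie 28511 to 79003 bp from the start, and the nearest peak is 8525 bp away.

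Gene by gene, the summed signal of all peaks of a gene was higher in paused cells for 23 of 41 tested genes and lower for 1. The background was 28.0% of all 18217 tested genes higher and 1.28% lower, and the median change was 0.25 for the members and 0.14 for all genes. The 23 were Brdt, Ddx4, Dmc1, Hormad1, Hormad2, Mael, Mei1, Meioc, Mov10l1, Piwil2, Prdm9, Rnf17, Slc25a31, Sohlh2, Stk31, Syce1, Sycp1, Sycp2, Tdrd1, Tdrd12, Tdrd9, Tdrkh and Tex15, and the 1 was Tex14. Slc25a31, with a single peak, had the largest change, 0.87 (adjusted p = 6.92e-05), and Mov10l1 changed by 0.83 (adjusted p = 1.94e-05). Tdrd9, whose start-site peak was not called, was higher on its sum, which includes 3 called peaks inside the gene, 0.29 (adjusted p = 0.00605). With TMM scaling, in edgeR or limma-trend, and after loess correction, 6 genes were higher, namely Ddx4, Meioc, Mov10l1, Slc25a31, Stk31 and Sycp2. The backgrounds were 4.26%, 4.11% and 4.16% of all genes. DESeq2 called 4 of these 6 (background 2.27%), without Ddx4 and Meioc, and Tex14 was lower in all 4 fits, against backgrounds of 4.29%, 3.83%, 3.88% and 2.05% lower. Without control 3, 14 genes (34.1%) were higher and Tex14 lower, against 22.7% and 0.807% of all genes, so the share of members lay nearer to that of all genes. Of the 39 genes with a tested peak at an end or start site, 17 had one called higher and 0 had one called lower, against 13.1% and 1.51% of all 14616 such genes. In the authors' deposited table, 32 member peaks had an FDR under 0.05, 26 higher and 6 lower, and all 32 were called here in the same direction. The calls made here include 8 more. Both sets of calls come from the same samples, and the share of all peaks under the authors' FDR was not counted.

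Other genes of the same biology were taken from lists. Among 36 further germ-cell and meiosis genes, 19 were higher on summed signal and 1 lower, with a median of 0.24 beside 0.14 for all genes. At their start-site peaks, 9 of 23 were higher and 1 lower, with a median of 0.30, against 11.0% higher and 0.666% lower of all start-site peaks. The gene with the smallest adjusted p was Ccnb1ip1, a regulator of crossover formation also known as HEI10, which fell, -0.64 (adjusted p = 6.07e-05). Ankrd31, which helps to place the DNA breaks, changed by 0.56 (adjusted p = 7.53e-05), and Spata22, a partner of the single-strand DNA-binding protein MEIOB, by 0.46 (adjusted p = 0.000361). Terb2, which ties telomeres to the nuclear envelope, changed by 0.64 (adjusted p = 0.00142), the receptor gene Kit by 0.34 (adjusted p = 0.00164) and the central-element gene Tex12 by 0.79 (adjusted p = 0.00189). Among 28 regulators of germline genes in embryonic stem cells, 9 were higher and 0 lower on summed signal, 32.1% against the background of 28.0%, with a median of 0.14. At their start sites, 4 of 22 (18.2%) were higher, against the same 11.0%. Those called with the smallest adjusted p were Dnmt3l, the cofactor of de novo DNA methylation, 0.39 (adjusted p = 0.000127), the histone H3K9 methyltransferase gene Setdb1, 0.40 (adjusted p = 0.00122), and the DNA demethylation enzyme gene Tet1, 0.19 (adjusted p = 0.00332). Next came Wdr5, 0.23 (adjusted p = 0.0054), Uhrf1, the partner of maintenance methylation, 0.27 (adjusted p = 0.0117), and Mga, 0.20 (adjusted p = 0.0227). Max and E2f6, which bind the motifs above, are named after their values had been seen. Neither was called on summed signal, with 0.06 (adjusted p = 0.475) and 0.17 (adjusted p = 0.153). The start-site peak of E2f6 alone did rise, from 84.7 ± 11.9 to 136 ± 4.82 (log2 change 0.68, SE 0.13, adjusted p = 0.000427), the largest start-site change of the regulator list. That of Max went from 353 ± 50.3 to 403 ± 32.1 (log2 change 0.20, SE 0.11, adjusted p = 0.219), with no call. On summed signal with TMM in edgeR, the further germ-cell list had 5 genes higher and 1 lower with a median of 0.10, and the regulator list 2 higher and 1 lower with a median of 0.00. Of all genes, 4.26% were higher and 4.29% lower in that fit.

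Start sites were called both with and without the motifs. Of the 15 member start sites with CACGTG, all of which had a peak, 8 were called higher, with a median change of 0.42. Of the 19 without it that had a peak, 7 were called, with a median of 0.35. For all start-site peaks the shares called higher were 11.6% with CACGTG and 10.9% without. The window and the start-site peak shared 0 bases at Sycp1, which was called, and at Sycp3, Syce2 and Sohlh1, which were not. All of these hold CACGTG, so the change there was not measured over the motif. With GCGGGAA, 4 of 9 were called, and without it 11 of 25, with medians of 0.35 in both. Over all start-site peaks the shares were 12.2% with GCGGGAA and 10.9% without. Called and uncalled genes had median CpG counts of 22 (10 to 38) and 18 (9 to 48). Mov10l1, Slc25a31 and Hormad1, printed above, hold CACGTG, while Sycp2 holds neither motif and was called with a log2 change of 0.68, and Tdrd9 holds a pair and had a change of -0.18.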

How the data were processed

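ATAC-seq libraries from 50000 live cells each, 4 control and 4 paused, were read in pairs of 150 bp, per the labels' protocols. The submitters' processing notes name FastQC, Trim Galore, Bowtie2 2.4.1, MACS3 3.0.3, DiffBind 3.16.0 and the build mm10, which is GRCm38, without giving their order or settings. Read filters and any shift of reads for the Tn5 cut are not given in the sources used here. The deposited table holds 1 peak set for all samples, so replicates are compared over the same peaks.

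The per-sample values are a signal deposited by the authors. In each sample 100% of the values were whole multiples of 1 step (tolerance 0.006), that is, whole reads divided by 1 factor. The table also holds the authors' log2 concentrations and log2 fold, and their p-values and FDR, which were deposited with no statement of the test and are used only where that table is named. The number of sample columns left unused was 0.

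Groups came from the sample titles. No replicate pair agreed within sampling noise, and no sample was left out as a copy of another, so all 8 were counted. The lowest chi-square per degree of freedom was 1.09, between control 3 and control 4. This check cannot show that the samples came from separate cultures. The test, for peaks and for sums per gene, was limma-trend (limma 3.58.1, R 4.3.3) on log2(value + 1) of features with a mean of at least 10, with Benjamini-Hochberg adjustment over all features and a threshold of 0.05. Alternatives were edgeR 4.0.16 and DESeq2 1.42.0 on the recovered reads, TMM rescaling, a loess correction (span 0.3), a pseudocount of 0.1, no filter, a mean of at least 50, other rules for giving peaks to genes (50 kb, nearest end only, a gene-end window of 500 bp), a replicate block and each sample left out in turn. Of all peaks, edgeR called 21045 with the deposited factors and 16142 with TMM. Of these fits, limma-trend, edgeR with TMM and limma-trend after loess correction were first run on simulated counts with known changes. Those counts had no overall shift between the groups, so they do not bear on the choice of scaling. DESeq2 and the other alternatives were not run on them.

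Gene spans, start sites and sequences were taken from RefSeq tables of GRCm38.p6, in which all 42 genes were found by symbol. Per-sample values are printed for the strongest peak at each start site (at either end where no start is listed) and for the 20 called peaks with the smallest adjusted p. Of each further list, at most 6 called genes are named. The members and lists were chosen with earlier results of these data known.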

Additional observations from a re-analysis of the deposited data

Results flagged for a closer look

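In groups of 4 samples, 170 were searched for a sample that stands far from the other 3, and 7 (4.12%) held one, about the 1 in 20 that chance gives. At the Sycp2 start site, control 3 had a value of 93.13 and the next control sample 76.74. At the Slc25a31 start site, control 3 had 49.11 and the next 64.49. Both genes were called, and their groups did not overlap. At the Brdt start site, paused 1 had 116.51 and the next paused sample 93.06. At the Mei1 gene-end peak, control 4 had 29.39 and the next control sample 52.49. The calls at Brdt and Mei1 were lost without those libraries. At a peak inside Hormad2, paused 4 had 64.44 and the next paused sample 71.52. At a Tex15 peak that was not called, control 4 had 47.02 and the next control sample 28.79. In the summed signal of Tdrd12, control 4 had 626 and the next control sample 541.87. Of the 7 samples, 3 were control 4 and 2 were control 3, the library with the fewest reads.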

How the results depend on the processing

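Of 40 called member peaks, 13 kept their call in every alternative, 27 lost it in at least 1 and 0 reversed. All peaks called, 17660, became 5794 with DESeq2, 10956 after loess correction and 10910 with a mean of at least 50, and 11570 to 15845 without 1 library. Member peaks called higher, 33, became 11 with DESeq2, 19 with TMM in edgeR or limma-trend and 14 after loess correction, and 24 to 29 without 1 library. Those called lower, 7, became 15 with TMM in edgeR, 13 after loess correction and 3 with a mean of at least 50, and 5 to 8 without 1 library. Of all tested peaks, 11.0% were higher and 2.91% lower in the main fit. With TMM in edgeR these shares were 7.13% and 5.54%, and after loess correction 5.10% and 3.50%. Start-site peaks called higher, 15, became 7 with DESeq2 and after loess correction, and 12 to 17 without 1 library. The share of all start-site peaks called higher moved too, from 11.0% to 0.959% with DESeq2 and 1.14% after loess correction. It was 4.98% without paused 4, which gave the 12, and 14.0% without control 2, which gave the 17. Genes called on summed signal, 24, became 5 with DESeq2 and 7 with TMM in either tool or loess correction, and 15 (without control 3) to 23 without 1 library. The median change of member peaks, 0.13, became 0.013 with DESeq2, 0.017 and 0.028 with TMM in edgeR and limma-trend, 0.00051 after loess correction and 0.20 with a mean of at least 50, and 0.09 to 0.15 without 1 library. That of gene-end peaks, 0.32, became 0.21, 0.18, 0.22, 0.17 and 0.39 in the same order, and 0.27 to 0.37 without 1 library. The cause of these differences was not tested.

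Reversed signs occurred at 6 peaks that were never called. After loess correction the log2 changes of Stag3, Rec8 and Syce3 were -0.016, -0.035 and -0.065. Sohlh1 had -0.11 in edgeR with TMM and -0.0090 with the deposited factors. Asz1 had -0.010 with DESeq2, -0.0081 with TMM in limma-trend and -0.017 after loess correction, and -0.024 (without control 2) to 0.30 without 1 library. Tdrd9 had -0.39 to 0.16 (without paused 2) without 1 library.

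The replicate numbers were checked for pairing. The deviations of same-numbered samples correlated at 0.08, 0.04, 0.13 and 0.04 for numbers 1 to 4. Control 2 correlated best with paused 1 (0.07), and paused 2 with control 1 (0.06). Each of the other samples correlated best with its own number. The main test did not take the numbers as pairs. With the number as a block, 21994 peaks were called in all, 18 start-site peaks were higher against 19.5% of all, and on summed signal 25 member genes were higher and 1 lower, against 34.99% and 1.57% of all genes. Depth limits the weak peaks: 3 reads equal a value of 5.08 in control 3.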
